A study of Homo sapiens with 31 samples.

Results

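GDF15 and NUPR1 are a pair of genes that human cells switch on under stress, and their transcripts were followed here across all 8 treatment groups of a study of H460 cells. H460 is an established line from a human non-small cell lung carcinoma. The members were found by gene symbol in the deposited expression table: 2 of its 74834 rows name GDF15 or NUPR1, and 22135 rows name 1 gene. Cells were sampled after 6 h of treatment, each library holds poly(A) RNA pooled from 2 wells, and the 31 libraries came from this 1 line. The groups were B87 + DMKG + Nutlin-3, B87 + DMKG + Rita, Nutlin-3, Rita, B87 + DMKG, DMKG, B87 and Control, with 4 libraries each except Nutlin-3 with 3. DMKG is dimethyl alpha-ketoglutarate, a cell-permeable form of a Krebs cycle metabolite, at 5 mM. B87 is BAY87-2243, an inhibitor of mitochondrial complex I, at 1 µM. Nutlin-3 (30 µM) and Rita (50 µM) are small molecules that the series groups as MDM2 inhibitors. Control cells were untreated, and the sources used here do not say if they received the solvent. The series asked what these treatments do to transcription in a setting of cell death.

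GDF15 is a secreted cytokine of the TGF-beta superfamily that acts through the receptor GFRAL and its co-receptor RET on cells of the hindbrain, and its blood level rises in many states of tissue stress, cancer included. NUPR1 is a small, largely unstructured nuclear protein that binds chromatin and DNA repair factors and is induced by nutrient, oxidative and endoplasmic reticulum stress. Both genes are known targets of the integrated stress response, in which kinases that phosphorylate the translation factor eIF2 raise the transcription factors ATF4 and CHOP (gene DDIT3).

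Values are normalized read counts, that is, reads per gene divided by a size factor of each library. The libraries held 33441414 to 82493612 reads. Reads of mitochondrial genes made up 1.33% to 7.51% of them, with 2.24% to 7.51% in B87 + DMKG and 1.49% to 2.15% in Control. Within DMKG, libraries 1 and 2 correlated at 0.987 and libraries 3 and 4 at 0.990 over log2 values of all tested rows, against 0.973 to 0.979 across these pairs. Library 2 of B87 + DMKG also stood apart, at 0.964 to 0.968 with the rest of its group. So did library 4 of B87, at 0.980 to 0.982 with its group, against 0.991 to 0.993 among the rest. That B87 library had the fewest reads of all, 33441414. Epithelial markers summed to between 205755 and 417485 normalized counts a library, while leukocyte markers summed to 58.2 to 276 and endothelial markers to 6.55 to 79.2. The epithelial marker CDH1 was below the testing minimum with a mean of 2.77, and MS4A1 and CLDN5 were at 0 throughout. Fibroblast markers summed to 745 to 1391, a level that includes collagen and PDGF receptor genes.

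GDF15 occupies chromosome 19, positions 18496968 to 18499987 in hg19. Its row overlaps 4 others, of which only that of the microRNA gene MIR3189 has a symbol. NUPR1 occupies chromosome 16, positions 28548662 to 28550495, and its row overlaps no other. The promoter reference used here held a window for GDF15 and none for NUPR1, so only that of GDF15 is shown. This RefSeq window around the GDF15 start runs from 250 bases before to 50 after it (GRCh38.p14, chr19:18385908-18386207, plus strand). Capitals mark the motif matches found.
GDF15 promoter: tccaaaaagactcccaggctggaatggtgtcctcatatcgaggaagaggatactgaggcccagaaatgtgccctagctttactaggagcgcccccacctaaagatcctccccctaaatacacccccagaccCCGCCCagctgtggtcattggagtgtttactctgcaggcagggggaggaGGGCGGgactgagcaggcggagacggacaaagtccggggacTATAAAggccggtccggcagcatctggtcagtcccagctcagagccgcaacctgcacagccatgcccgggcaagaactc
The window holds a TATA box (TATAAA) at -29, a motif found in 11.5% of 35116 promoter windows searched on both strands. It also holds the GC box GGGCGG, bound by SP1 and relatives, at -70 on the plus strand and at -119 on the minus strand, as do 45% of windows. The C/EBP-ATF element TGATGCAA (0.866% of windows), the cAMP response element TGACGTCA (1.85%), the EGR1 motif GCGGGGGCG (5.07%), and the E-box CACGTG (7.26%) had no match in these letters. No motif was allowed to differ by a base, and no 2 of the matches overlapped.

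**Figure D1:**
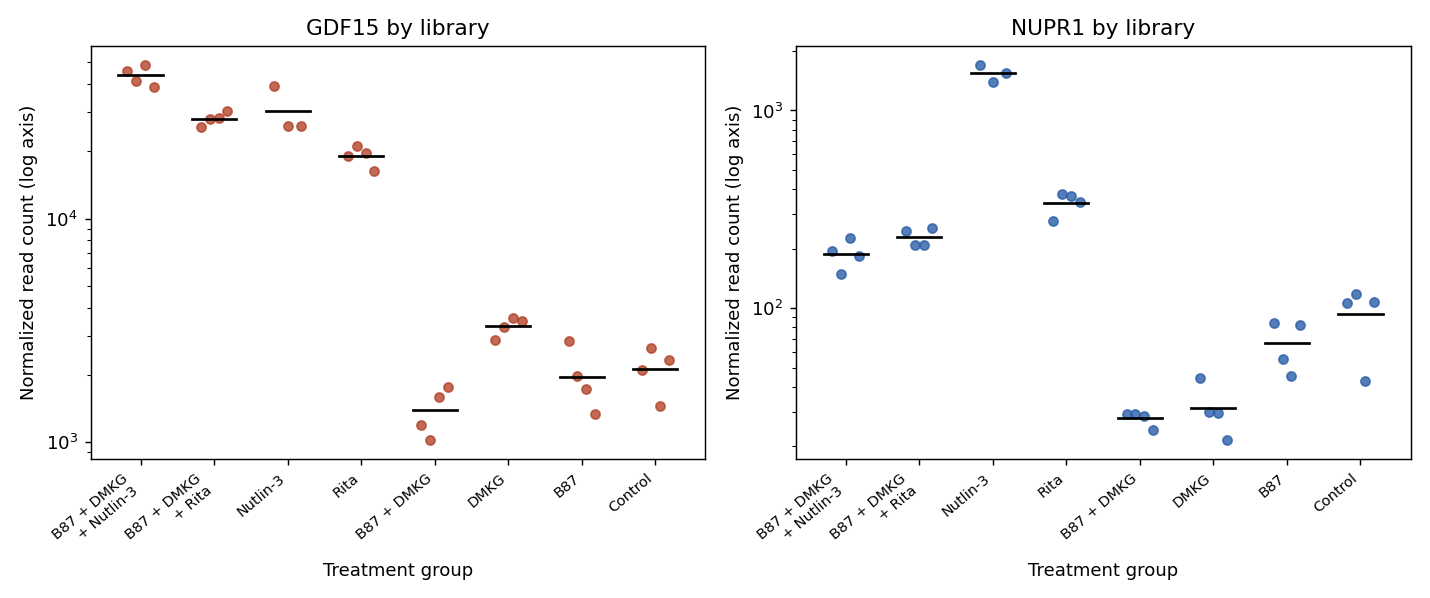
Normalized read counts of GDF15 (left panel) and NUPR1 (right panel) on log axes, with 1 point per library and a bar at the arithmetic mean of each treatment group. GDF15 is high in all 4 groups with Nutlin-3 or Rita, between 16285 and 48793, whereas NUPR1 is far higher in Nutlin-3, at 1400 to 1704, than in B87 + DMKG + Nutlin-3, at 149 to 227.

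Nutlin-3 and Rita each raised both genes. GDF15 stood at 39322, 25915 and 26021 normalized counts in the Nutlin-3 libraries, against 2105, 2649, 1451 and 2335 in the Control libraries. In Rita it stood at 19143, 21057, 19581 and 16285. Every Nutlin-3 and Rita library lay above every Control library, by a wide margin, and the first Nutlin-3 library was set apart above the other two. Here and below, overlap between groups is given without the share of all rows, so it does not set the members apart. The log2 fold change of GDF15 was 3.84 ± 0.20 (SE, limma, n = 3 and 4) for Nutlin-3, a 14.3-fold increase with adjusted p = 1.07e-15, in a comparison that called 39.1% of the 16259 rows tested. Of these rows, 12 had a larger increase. For Rita it was 3.18 ± 0.18 (SE, limma, n = 4 each), or 9.08-fold, with adjusted p = 6.01e-15, where 52.1% of rows were called. In whole reads, GDF15 held 21543 to 48862 reads a library in Nutlin-3 and 15562 to 27838 in Rita, against 1216 to 2486 in Control.

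NUPR1 rose more with Nutlin-3 than with Rita. Its normalized counts were 1704, 1400 and 1542 in Nutlin-3 and 277, 377, 369 and 344 in Rita, against 107, 118, 43.0 and 107 in Control. The 3 groups did not overlap, and the third Control library was low beside the rest of its group. The log2 fold change against Control was 4.13 ± 0.26 (SE), or 17.5-fold, for Nutlin-3 (limma, adjusted p = 1.34e-13), and 7 rows of the table rose more. For Rita it was 1.94 ± 0.24 (SE), or 3.85-fold (adjusted p = 5.78e-08). Nutlin-3 set directly against Rita, a comparison that called 51.2% of rows, gave 2.18 ± 0.26 for NUPR1 (adjusted p = 2.97e-08) and 0.66 ± 0.20 for GDF15 (adjusted p = 0.00595). The GDF15 groups did not overlap in that comparison, but the call was lost without the first Nutlin-3 library (log2 fold change 0.46, adjusted p = 0.0686). Mitochondrial reads were 2.42% to 5.39% in Nutlin-3 and 2.69% to 4.76% in Rita, against 1.49% to 2.15% in Control, and their part in these differences was not tested.

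DMKG alone moved the members in opposite directions. GDF15 was at 2852, 3285, 3600 and 3491 normalized counts in DMKG, all above the Control range of 1451 to 2649. Its log2 fold change was 0.66 ± 0.18 (SE, n = 4 each), or 1.58-fold, with adjusted p = 0.00399 by limma, in a comparison that called 41.4% of rows. NUPR1 was at 44.5, 29.9, 29.6 and 21.6 in DMKG, against 43.0 to 118 in Control. The groups met at a single point, where the first DMKG library lay just above the low Control library 3. NUPR1 fell by 1.49 ± 0.24 on the log2 scale (adjusted p = 7.99e-06), with 23 to 32 reads a library in DMKG, against 36 to 111 in Control. In bulk libraries, fewer cells expressing a gene and less RNA per cell cannot be told apart. The rise of GDF15 was no longer called when DMKG libraries 3 and 4 were left out together (log2 fold change 0.55, adjusted p = 0.0634).

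B87 alone gave no call for either gene, in a comparison that called 7 rows, or 0.0431%. GDF15 was at 2827, 1970, 1723 and 1335 in B87, spread over the Control range and beyond both its ends, with a log2 fold change of -0.14 (95% interval -0.51 to 0.23). NUPR1 was at 83.9, 55.2, 45.2 and 81.9 in B87, with a log2 fold change of -0.44 (95% interval -0.92 to 0.05). These values were within the Control range only through the third Control library, at 43.0, the rest of Control being at 107 to 118. Both 95% intervals include 0. When each library was left out in turn, the NUPR1 value ranged from -0.77 to -0.27. The sign of the GDF15 value turned when the fourth B87 library was left out (0.03).

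B87 + DMKG lowered both genes below Control. GDF15 was at 1191, 1025, 1587 and 1761 normalized counts in B87 + DMKG, against 1451 to 2649 in Control. NUPR1 was at 29.1, 29.3, 28.5 and 24.2, all below the lowest Control library. The GDF15 ranges overlapped and the NUPR1 ranges did not. Against Control, where 61% of rows were called, GDF15 fell by 0.62 ± 0.18 on the log2 scale (limma, adjusted p = 0.00423) and NUPR1 fell by 1.62 ± 0.24 (adjusted p = 8.9e-07). Mitochondrial reads, at 2.24% to 7.51% in B87 + DMKG, differed most within this group, and their part was not tested.

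B87 + DMKG was also set against its single agents. Against DMKG, a comparison that called 60.1% of rows, GDF15 fell by 1.28 ± 0.18 on the log2 scale (adjusted p = 5.14e-07), with no overlap between the groups. NUPR1 differed from DMKG by -0.13 (95% interval -0.62 to 0.36, adjusted p = 0.66), with overlapping groups, but with quantile normalization it was called lower (-0.64, adjusted p = 0.0214). Against B87, a comparison that called 62.6% of rows, NUPR1 fell by 1.19 ± 0.24 (adjusted p = 8.02e-05) and GDF15 by 0.48 ± 0.18 (adjusted p = 0.0233). That GDF15 call was lost without the first B87 library (-0.28, adjusted p = 0.166) and without the first or second B87 + DMKG library (-0.41 and -0.34). The effect of B87 + DMKG minus the summed effects of its single agents was -1.14 ± 0.26 for GDF15 (adjusted p = 0.000523), where 48.8% of rows were called. For NUPR1 it was 0.31 (95% interval -0.38 to 1.00, adjusted p = 0.474). GDF15 was thus above Control in DMKG and below it in B87 + DMKG.

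**Figure D2:**
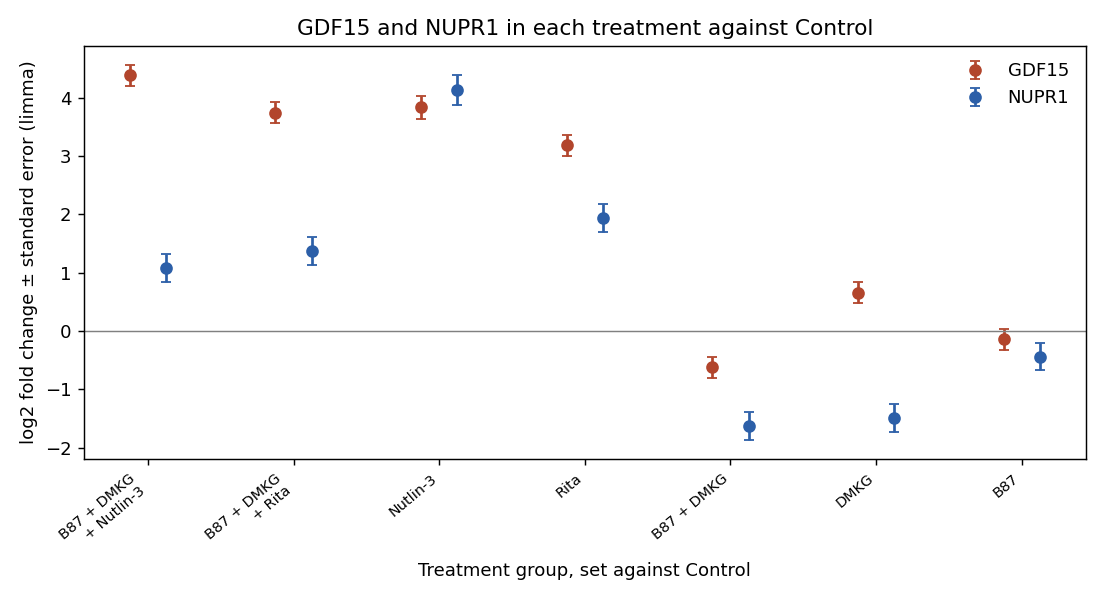
log2 fold change of GDF15 and NUPR1 in each treatment against Control, with bars of 1 standard error from the limma fit. The 7 comparisons share the Control libraries. The genes lie close together for Nutlin-3, at 3.84 and 4.13, and farthest apart for B87 + DMKG + Nutlin-3, at 4.38 and 1.08.

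Adding B87 + DMKG to Nutlin-3 separated the members. GDF15 reached 45549, 41383, 48793 and 38929 normalized counts in B87 + DMKG + Nutlin-3, against 39322, 25915 and 26021 in Nutlin-3. NUPR1 was at 194, 149, 227 and 183 in B87 + DMKG + Nutlin-3, against 1704, 1400 and 1542 in Nutlin-3. The GDF15 groups overlapped because of the first Nutlin-3 library, while for NUPR1 the highest library of the combined treatment was far below the lowest Nutlin-3 library. NUPR1 fell by 3.05 ± 0.26 on the log2 scale (limma, adjusted p = 1.79e-11), and 102 of the 16259 rows fell further, in a comparison that called 59.7% of them. GDF15 rose by 0.54 ± 0.20, or 1.46-fold (adjusted p = 0.0176). The GDF15 call was lost without the second Nutlin-3 library (0.44, adjusted p = 0.0942) or the third (0.45, adjusted p = 0.0939).

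Against Control, where 58% of rows were called, B87 + DMKG + Nutlin-3 raised GDF15 by 4.38 ± 0.18 on the log2 scale, or 20.9-fold (limma, adjusted p = 4.59e-19), and 5 rows rose more. NUPR1 rose by 1.08 ± 0.24, or 2.12-fold (adjusted p = 0.000282). Against B87 + DMKG, where 58.9% of rows were called, the log2 fold changes were 5.00 ± 0.18 for GDF15, or 32.0-fold (adjusted p = 2.18e-19), and 2.70 ± 0.24 for NUPR1, or 6.52-fold (adjusted p = 8.58e-11). Neither comparison had an overlap between the groups for either gene. Summed epithelial markers were 347571 to 417485 in B87 + DMKG + Nutlin-3 and 205755 to 273025 in Nutlin-3, against 246180 to 280522 in Control, and their part was not tested.

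B87 + DMKG added to Rita also gave more GDF15 than Rita alone, and NUPR1 missed the threshold. GDF15 was at 25817, 27805, 28061 and 30248 normalized counts in B87 + DMKG + Rita, against 19143, 21057, 19581 and 16285 in Rita. NUPR1 was at 245, 209, 209 and 254 in B87 + DMKG + Rita, against 277, 377, 369 and 344 in Rita. Neither gene overlapped between the groups, GDF15 being the higher and NUPR1 the lower in the combined treatment. GDF15 rose by 0.56 ± 0.18 on the log2 scale, or 1.48-fold (limma, adjusted p = 0.0238), in a comparison that called 23.4% of rows. NUPR1 differed by -0.57 (95% interval -1.06 to -0.08), with adjusted p = 0.0826. Both genes were near the threshold: that of GDF15 was lost without the fourth Rita library (adjusted p = 0.0839) or the fourth B87 + DMKG + Rita library (0.0666), and NUPR1 passed with edgeR (-0.59, adjusted p = 0.0249) and DESeq2 (-0.58, adjusted p = 0.0152). Summed epithelial markers were 346191 to 394273 in B87 + DMKG + Rita, against 260889 to 288271 in Rita.

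Against Control, where 60.1% of rows were called, B87 + DMKG + Rita raised GDF15 by 3.74 ± 0.18 on the log2 scale, or 13.4-fold (limma, adjusted p = 6.27e-17), and NUPR1 by 1.37 ± 0.24, or 2.59-fold (adjusted p = 1.18e-05). Against B87 + DMKG, where 67.3% of rows were called, the log2 fold changes were 4.36 ± 0.18 for GDF15 (adjusted p = 1.43e-18) and 3.00 ± 0.24 for NUPR1 (adjusted p = 4.21e-12). All 4 libraries of the combined treatment lay above all libraries of either group it was set against, for both genes. The share of all rows for which this holds was not computed. B87 + DMKG + Nutlin-3 set against B87 + DMKG + Rita, where 48.3% of rows were called, gave 0.64 ± 0.18 for GDF15 (adjusted p = 0.00397) and -0.29 for NUPR1 (95% interval -0.78 to 0.20, adjusted p = 0.336).

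Tests of the difference between differences asked whether Nutlin-3 or Rita acted on the genes alike with and without B87 + DMKG. For Nutlin-3, a contrast that called 56.9% of rows, the log2 effect on GDF15 was larger by 1.16 ± 0.27 in the presence of B87 + DMKG (limma, adjusted p = 0.000489). The effect on NUPR1 was smaller by a contrast of -1.42 ± 0.35 (adjusted p = 0.00103). The Nutlin-3 effect thus differed in opposite directions for the members. For Rita, a contrast that called 48.6% of rows, the effect was larger in the presence of B87 + DMKG for both, by 1.18 ± 0.26 for GDF15 (adjusted p = 0.000359) and by 1.05 ± 0.34 for NUPR1 (adjusted p = 0.0109). By construction, each contrast contains the difference between B87 + DMKG and Control.

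The order of GDF15 levels was B87 + DMKG + Nutlin-3, Nutlin-3, B87 + DMKG + Rita, Rita, DMKG, Control, B87 and B87 + DMKG. The neighbours Nutlin-3 and B87 + DMKG + Rita did not differ beyond their spread (log2 fold change 0.09, adjusted p = 0.7), nor did B87 and Control. The order of NUPR1 levels was Nutlin-3, Rita, B87 + DMKG + Rita, B87 + DMKG + Nutlin-3, Control, B87, DMKG and B87 + DMKG. Between neighbours in that order, Nutlin-3 and Rita, B87 + DMKG + Nutlin-3 and Control, and B87 and DMKG differed by the limma test, and the other 4 pairs did not. The group with the most GDF15 thus had a middle place for NUPR1.

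The quotient of the 2 genes within a library puts this divergence in 1 number per sample, in which the library's size factor nearly cancels. The log2 ratio of GDF15 to NUPR1 was 7.87, 8.11, 7.74 and 7.72 in B87 + DMKG + Nutlin-3, against 4.53, 4.21 and 4.08 in Nutlin-3. It was 6.71, 7.05, 7.06 and 6.89 in B87 + DMKG + Rita, against 6.11, 5.80, 5.73 and 5.56 in Rita. In DMKG it was 5.97, 6.73, 6.88 and 7.27, against 4.29, 4.47, 5.05 and 4.43 in Control. In each of these pairs every library of the group with more agents, or with DMKG, lay above every library it was set against. The Nutlin-3 libraries overlapped the low end of the Control range.

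Over 15 pairs of groups, two-sided exact permutation tests with Benjamini-Hochberg adjustment compared these log2 ratios. The mean difference was 3.30 for B87 + DMKG + Nutlin-3, 2.37 for B87 + DMKG + Rita, 1.24 for Rita, 1.01 for B87 + DMKG and 2.15 for DMKG, each against Control and each with exact p = 0.0286, the smallest that 4 against 4 libraries allow, and adjusted p = 0.0476. The same exact p and adjusted p held for B87 + DMKG + Rita against Rita (1.13), for B87 + DMKG + Nutlin-3 against B87 + DMKG + Rita (0.93), and for the triple treatments against B87 + DMKG (2.29 with Nutlin-3 and 1.36 with Rita). The difference for B87 + DMKG + Nutlin-3 against Nutlin-3 was 3.59, greater than any other among the 15. With 3 Nutlin-3 libraries its exact p could go no lower than 0.0571, the value it had (adjusted p = 0.0714). Nutlin-3 differed from Control by -0.29 (exact p = 0.286) and B87 by 0.30 (exact p = 0.4). B87 + DMKG differed from DMKG by -1.15 (exact p = 0.0571, adjusted p = 0.0714) and from B87 by 0.71 (exact p = 0.0857, adjusted p = 0.0989), with overlapping groups in both.

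**Figure D3:**
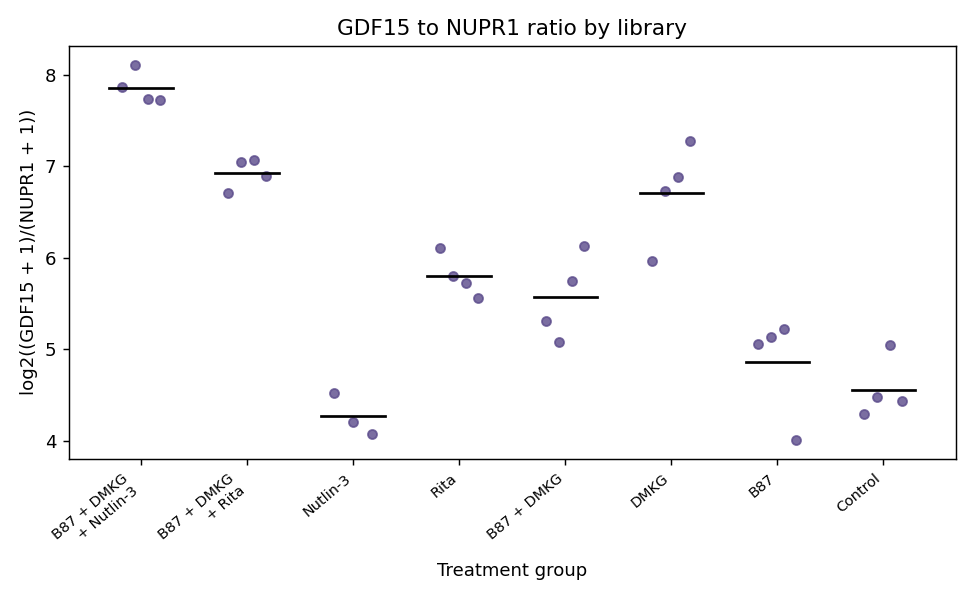
log2 ratio of GDF15 to NUPR1 normalized read counts, each plus 1, with 1 point per library and a bar at the group mean. The 4 B87 + DMKG + Nutlin-3 libraries, at 7.72 to 8.11, lie above all others, and the 3 Nutlin-3 libraries, at 4.08 to 4.53, overlap the low end of Control.

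The GDF15 gene also hosts a microRNA gene, MIR3189, whose row covers 73 bases of chromosome 19, positions 18497372 to 18497444 in hg19. It was singled out after its values were seen. In the GENCODE v29 annotation (GRCh38) the MIR3189 hairpin lies in an intron of both protein-coding GDF15 transcripts that span it. Its sequences are shown because the row lies inside a GDF15 intron, with the seeds of the mature forms (bases 2 to 8) in capitals. They come from RefSeq, the hairpin at chr19:18386562-18386634, plus strand (GRCh38.p14).
MIR3189 hairpin: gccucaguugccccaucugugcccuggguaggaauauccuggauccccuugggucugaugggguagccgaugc
miR-3189-5p: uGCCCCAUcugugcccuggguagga
miR-3189-3p: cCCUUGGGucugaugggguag
The seeds differ. Poly(A) libraries do not capture mature microRNAs, so the row counts longer RNA that crosses these bases, and whether counting used the strand is not stated in the labels.

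The MIR3189 row was at 63.6, 64.1, 69.3 and 80.5 normalized counts in B87 + DMKG + Nutlin-3, against 4.02, 4.81 and 13.3 in Nutlin-3. In B87 + DMKG + Rita it was at 7.89, 0, 0.90 and 6.22, against 1.75, 1.51, 0 and 1.05 in Rita. In B87 + DMKG, DMKG, B87 and Control no library exceeded 4.04, and all B87 libraries were at 0. The B87 + DMKG + Nutlin-3 libraries thus stood apart from all 27 others. The row's mean over all libraries, 10.7, passed the testing minimum through this group alone, so its values are given as a description, with no test.

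Reads on the row were also counted relative to GDF15 reads. B87 + DMKG + Nutlin-3 had 310 whole reads on the MIR3189 row and 193770 on the GDF15 row in its 4 libraries, against 22 and 102727 in the 3 Nutlin-3 libraries. Per 1000 GDF15 reads that made 1.40 to 2.07 reads in the B87 + DMKG + Nutlin-3 libraries, against 0.102 to 0.511 in Nutlin-3. The Rita libraries gave 0 to 0.0911, and B87 + DMKG + Rita 0 to 0.306, although GDF15 had 90258 and 119284 reads there. B87 + DMKG ranged from 0 to 2.29 on 7 reads in all, too few to place it. The 2 unnamed short rows at the same bases had a mean of 0 normalized counts. A long unnamed row that overlaps GDF15, from 18138895 to 18679385 in hg19, had a mean of 9.94. Whether intron retention or another transcript bears on the MIR3189 reads was not tested.

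**Figure D4:**
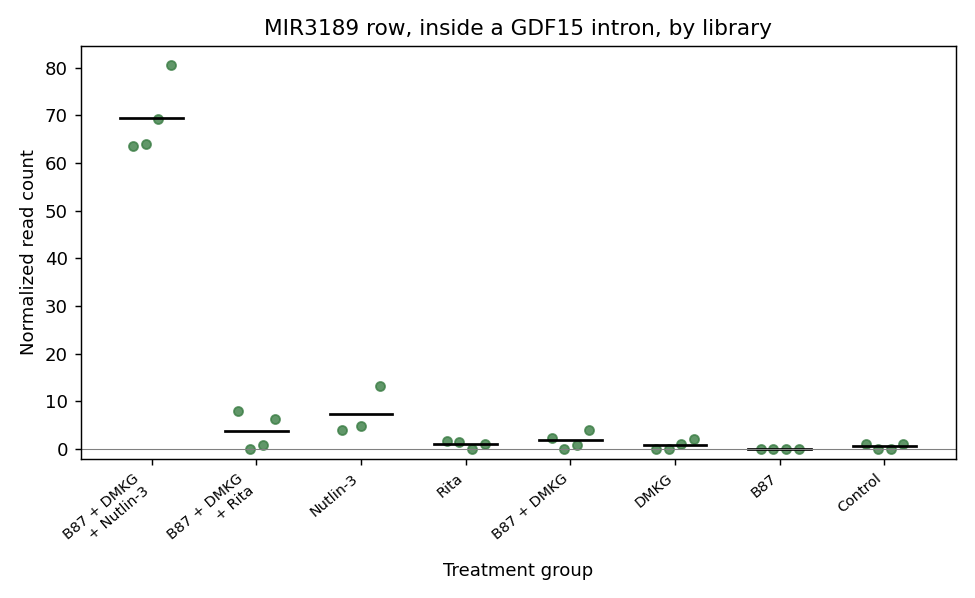
Normalized read counts of the MIR3189 row, which lies inside a GDF15 intron, with 1 point per library and a bar at the group mean. The 4 B87 + DMKG + Nutlin-3 libraries, at 63.6 to 80.5, stand above all others, of which the highest is a Nutlin-3 library at 13.3.

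The remaining genes of the stress pathways are given by lists, beside the share of all 16259 rows called in each direction. Against Control, 28.3% of rows rose and 29.7% fell in B87 + DMKG + Nutlin-3, 29.4% rose and 30.7% fell in B87 + DMKG + Rita, and 18.5% rose and 20.7% fell in Nutlin-3. The shares were 25.8% and 26.3% in Rita, 30.2% and 30.8% in B87 + DMKG, and 19.6% and 21.8% in DMKG. In B87 + DMKG + Nutlin-3 against Nutlin-3 29% rose and 30.6% fell, and in B87 + DMKG + Rita against Rita 9.35% rose and 14.1% fell. When every library was instead scaled to the same total, the median log2 fold change of all rows moved to -0.25 in B87 + DMKG + Rita, -0.13 in B87 + DMKG + Nutlin-3, -0.14 in Nutlin-3 and -0.15 in Rita against Control, and list counts that this moved by more than 1.5 times are given with their list. Upstream, the list of integrated stress response sensors and phosphatase subunits had 10 tested genes. Against Control, 3 rose and 5 fell in B87 + DMKG + Nutlin-3, 3 rose and 4 fell in B87 + DMKG + Rita, 3 rose and 3 fell in Nutlin-3 and in Rita, and 2 rose and 3 fell in B87 + DMKG. With equal totals 1 rose in each triple treatment and in Rita, where 5 fell. PPP1R15A (GADD34), the stress-induced subunit that directs dephosphorylation of eIF2, had log2 fold changes of 2.80 in B87 + DMKG + Nutlin-3, 2.66 in B87 + DMKG + Rita, 0.70 in Nutlin-3, 1.93 in Rita and 2.63 in B87 + DMKG, all called. EIF2AK3 (PERK), the kinase of the endoplasmic reticulum, rose by 1.52 with Nutlin-3 but fell by 1.96 in B87 + DMKG + Nutlin-3 against Nutlin-3. It fell by 0.92 with Rita.

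Of 12 listed transcription factor genes with a row that are known to act on GDF15 or NUPR1, 11 were tested, TP63 being below the minimum with a mean of 1.55. Against Control, 8 rose and 1 fell in B87 + DMKG + Nutlin-3, 6 rose and 1 fell in B87 + DMKG + Rita, 7 rose and 1 fell in Nutlin-3, 6 rose and 1 fell in Rita, and 4 rose and 5 fell in B87 + DMKG. In DMKG 4 rose and in B87 none was called. With equal totals 5 rose in B87 + DMKG + Nutlin-3, 3 fell in B87 + DMKG + Rita, and 2 rose and 2 fell in DMKG. EGR1, an immediate-early zinc finger factor, had the greatest log2 fold change of the list in B87 + DMKG at 6.54, with 5.73 in B87 + DMKG + Nutlin-3, 5.60 in B87 + DMKG + Rita, 3.39 in Rita, 2.04 in DMKG and 1.31 in Nutlin-3. EGR1 was thus highest where GDF15 was lowest, as well as high in the triple treatments.

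ATF4 and its partners followed another course. ATF4 had log2 fold changes against Control of -0.19 in B87 + DMKG + Nutlin-3, 0.67 in B87 + DMKG + Rita, 0.58 in Nutlin-3, 0.49 in Rita and -0.73 in B87 + DMKG, all called, and -0.08 in DMKG, not called (called at -0.20 with equal totals). DDIT3, which encodes CHOP, rose by 1.94, 2.59, 1.72 and 2.03 in those first 4 groups and fell by 0.93 in B87 + DMKG. DDIT3 differed between B87 + DMKG + Nutlin-3 and Nutlin-3 by 0.22, not called, while ATF4 fell by 0.76 there. CEBPB, a bZIP partner of both, fell by 1.37 in the same comparison, and ATF3, another stress-induced bZIP factor, rose by 1.36. TP73 rose by 4.32 there, having fallen by 3.01 with Nutlin-3 against Control.

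**Figure D5:**
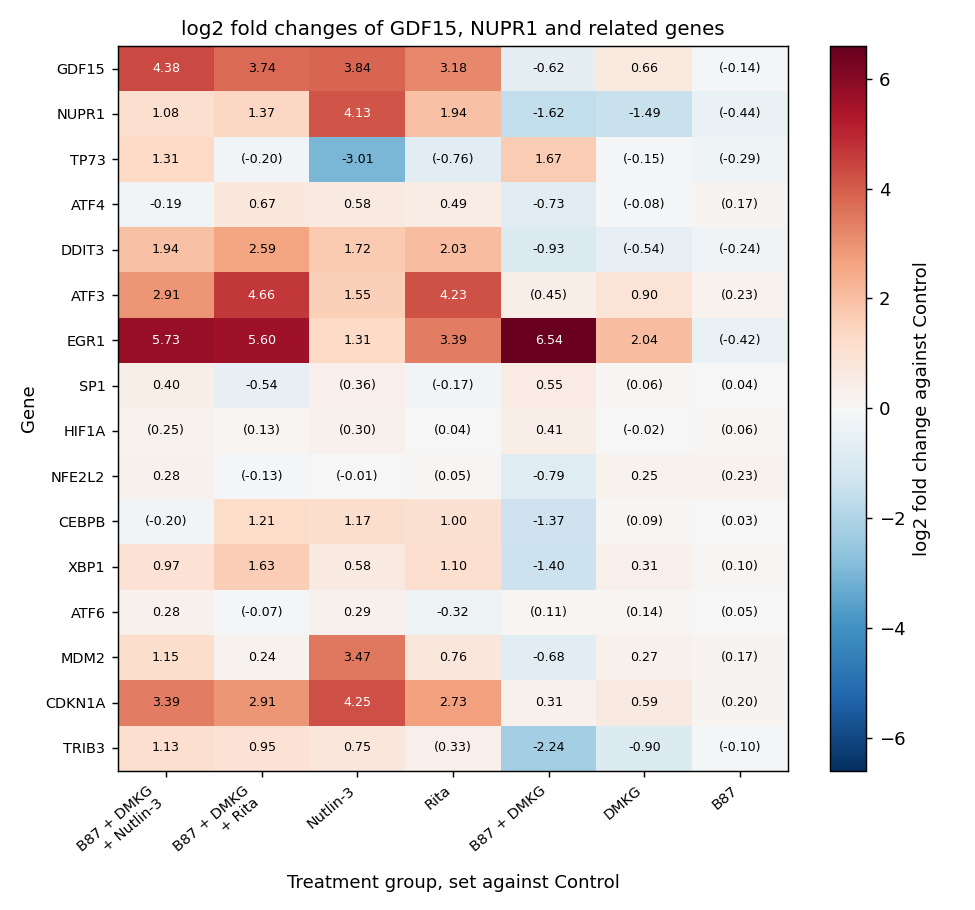
log2 fold changes against Control of GDF15, NUPR1, the 11 tested transcription factors that act on them, and the target genes MDM2, CDKN1A and TRIB3, in 7 treatments. Values in parentheses were not called at an adjusted p of 0.05, and the columns share the Control libraries. EGR1 reaches 6.54 in B87 + DMKG, where GDF15 and NUPR1 are at -0.62 and -1.62.

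Among genes of cell cycle arrest, DNA repair and cell death that MDM2 inhibition is known to raise, GDF15 left out, 24 were tested. Against Control, 15 rose and 3 fell in B87 + DMKG + Nutlin-3, with a list median of 0.40 on the log2 scale, and 13 rose and 2 fell in B87 + DMKG + Rita (median 0.31). With Nutlin-3, 22 rose and none fell (median 1.59), and with Rita 18 rose and none fell (median 0.61). In B87 + DMKG 3 rose and 12 fell, and in DMKG 7 rose and 6 fell. With equal totals 8 rose and 4 fell in B87 + DMKG + Rita (median 0.05) and 1 fell in Nutlin-3. The medians over all tested rows in these comparisons were between -0.01 and 0.03. In B87 + DMKG + Nutlin-3 against Nutlin-3, 2 rose and 19 fell (median -1.04, all rows -0.01), against which GDF15 rose. Among those that fell, the log2 fold changes were -3.13 for SPATA18, a mitochondrial quality factor, -2.59 for the death receptor FAS and -2.32 for MDM2 itself. CDKN1A, the cell cycle inhibitor p21, fell by 0.86 there and had log2 fold changes against Control of 3.39 in B87 + DMKG + Nutlin-3 and 4.25 in Nutlin-3. In B87 + DMKG + Rita against Rita 2 rose and 10 fell.

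Among ATF4 and CHOP target genes other than the members, 27 were tested. Against Control, 8 rose and 6 fell in B87 + DMKG + Nutlin-3 (median -0.06), 19 rose and 2 fell in B87 + DMKG + Rita (0.63), 20 rose and none fell in Nutlin-3 (0.75), and 18 rose and 2 fell in Rita (0.54). In B87 + DMKG none rose and 24 fell (median -1.18), and in DMKG 5 rose and 10 fell (-0.16). CHAC1, which degrades glutathione, fell by 6.02 in B87 + DMKG, and the log2 fold changes there were -3.22 for the peptide hormone gene ADM2 and -2.24 for TRIB3, a pseudokinase that restrains ATF4. INHBE, a subunit of activin E, was at 0 in all 4 B87 + DMKG libraries and averaged 18.4 ± 11.3 normalized counts (SD, n = 4) in Control. In B87 + DMKG + Nutlin-3 against Nutlin-3, 4 rose and 15 fell (median -0.86). ADM2 had -2.88, INHBE -2.72 and PSAT1, of serine synthesis, -1.78 on the log2 scale there, while DDIT4, an inhibitor of mTORC1, rose by 3.27. NUPR1 fell with the greater part of both lists in that comparison, whereas GDF15 rose, as did DDIT4. In B87 + DMKG + Rita against Rita 3 rose and 2 fell, or 2 and 5 with equal totals, where 4 fell in B87 + DMKG + Rita against Control.

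GFRAL, the GDF15 receptor, was at 0 in every library, which by counting error alone allows up to 3 reads in each. Its co-receptor gene RET was tested and rose by 0.93 on the log2 scale in B87 + DMKG + Nutlin-3, by 1.74 in B87 + DMKG + Rita, by 1.03 in Rita and by 1.66 in DMKG, each against Control. With equal totals it was not called in B87 + DMKG + Nutlin-3 (0.78, adjusted p = 0.0956) or Rita (0.88, adjusted p = 0.0659). Of 11 receptor and convertase genes with a row, 7 were tested, and against Control 3 rose and 1 fell in B87 + DMKG + Nutlin-3, 4 rose in B87 + DMKG + Rita, 2 fell in Nutlin-3, 3 rose and 1 fell in Rita, 3 rose and 3 fell in B87 + DMKG and 5 rose in DMKG. With equal totals none rose in B87 + DMKG + Nutlin-3, 1 rose in Rita, and 1 fell in B87 + DMKG + Rita. FURIN, a protease that cleaves TGF-beta family precursors, fell by 0.52 with Nutlin-3 and by 0.48 with B87 + DMKG and rose by 0.63 with B87 + DMKG + Rita.

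Other ligand genes of the family were called in both directions, in small counts that do not set the family apart from all rows. Of all rows, 28.3% rose and 29.7% fell in B87 + DMKG + Nutlin-3, and 18.5% rose and 20.7% fell in Nutlin-3. Of 25 TGF-beta superfamily ligand genes with a row, 11 were tested, and against Control 2 rose and 2 fell in B87 + DMKG + Nutlin-3, 4 rose and 1 fell in B87 + DMKG + Rita, 2 rose and 2 fell in Nutlin-3, 3 rose and 1 fell in Rita and 2 rose and 3 fell in B87 + DMKG. With equal totals 1 rose and 5 fell in Nutlin-3, none rose and 2 fell in Rita, and 2 rose and 2 fell in B87 + DMKG + Rita. INHBA, a subunit of activin A, rose by 3.21 in DMKG, by 1.16 in B87 + DMKG + Nutlin-3 and by 0.99 in Nutlin-3, where the call was lost with equal totals (0.87, adjusted p = 0.0634). Among 10 other secreted stress factors tested, 7 rose in B87 + DMKG + Nutlin-3, 10 in B87 + DMKG + Rita, 6 in Nutlin-3, 7 in Rita, 4 in B87 + DMKG and 9 in DMKG. Of these factors 1 fell in Nutlin-3, 1 in Rita and 1 in DMKG. With equal totals 2 fell in B87 + DMKG + Nutlin-3, where none had fallen, and 4 rose in Nutlin-3. In DMKG the calcium-regulating hormone STC1 rose by 3.93, the lipase inhibitor ANGPTL4 by 3.87, the chemokine CXCL8 by 2.65, and ADM2 fell by 2.59. GDF15, at 0.66, moved far less than these in DMKG. In B87 + DMKG 4 of these factors fell, among them ADM2 (-3.22) and STC2 (-1.69).

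Genes tied to the NUPR1 protein were described by 2 further lists. Its paralogue NUPR2 was close to absent, with a mean of 0.03 normalized counts. Of 4 tested partners of the NUPR1 protein, 2 rose and 1 fell in B87 + DMKG + Nutlin-3 against Nutlin-3, where MSL1, which brings a histone acetyltransferase to chromatin, fell by 1.35. Of 6 tested genes reported downstream of NUPR1, 4 rose and none fell in that comparison, among them RELB by 1.55 and IER3 by 1.49, although NUPR1 itself fell. In DMKG, where NUPR1 fell, 3 of the 6 rose and 2 fell. In B87 + DMKG none rose and 3 fell, where 30.2% of all rows rose and 30.8% fell. NUPR1 rose against Control in the other 4 groups named next. There 2 rose and 1 fell in Nutlin-3 and in Rita, and 4 rose and 1 fell in each triple treatment. With equal totals 1 rose in Rita.

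The genes whose profiles were most like those of the members were found by Pearson's r of log2 values over the 31 libraries, among 11147 other rows. The libraries share 8 treatments, so these values describe the set and were not tested. For GDF15 they were CDKN1A (0.959), the immune co-stimulatory ligand TNFSF9 (0.957), the BH3-only death gene BBC3 (0.938), the translation repressor EIF4EBP1 (0.937) and DDIT3 (0.928). For NUPR1 they were the cysteinyl-tRNA synthetase CARS (0.958), PHLDA3 (0.958), TIGAR (0.953), the seryl-tRNA synthetase SARS (0.928) and the phosphatase PPM1D (0.925). The order depended on the measure. By the 8 group means CDKN1A ranked 11th and DDIT3 21st for GDF15, and by Spearman's rho 15th and 134th. NUPR1 ranked 178th for GDF15, with r = 0.793, and GDF15 ranked 91st for NUPR1. The nearest genes of each member thus included genes of the MDM2 inhibition list (CDKN1A and BBC3 for GDF15, PHLDA3, TIGAR and PPM1D for NUPR1) along with a gene of the stress response or of tRNA charging.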

How the data were processed

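Libraries were stranded TruSeq mRNA, per the labels' protocols. The deposited table gives a signal, normalized read counts per gene. The submitters' processing notes name FastQC, Picard, SAMtools, STAR 2.4.0 and DESeq2, and a mouse genome build, whereas the table's header and coordinates are those of hg19. The values are those of counts divided by a factor of each library: 100% of 690132 deposited values above 0 lay within 0.1 step of whole reads. Totals of these reads were 33441414 to 82493612. In each library 55.8% to 59.2% of the smaller of these counts were even, so some may be of read ends rather than fragments, a doubt that the read numbers given carry.

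Values plus a pseudocount of 1 were put on the log2 scale. All 31 libraries entered 1 limma 3.58.1 fit (R 4.3.3) with trend, over 16259 rows with a mean of at least 10 (13020 name 1 gene), for 18 comparisons, of which 3 combine 4 groups. Neighbours in the order of levels that are not among these were compared in the same fit. A call is an adjusted p below 0.05 (Benjamini-Hochberg, over the whole set of tested rows), and intervals are 95%. Overlap between groups is given without the share of all tested rows that overlap, so it does not set the members apart from other rows. The ratio was tested by exact permutation with scipy 1.17.1. Alternatives were pseudocounts of 0.5 and 5, other filters and scalings, a replicate block, edgeR 4.0.16 and DESeq2 1.42.0 on the whole reads, and leaving libraries out. GDF15 and NUPR1 are named everywhere. From each list come ATF4, DDIT3, EGR1, MDM2, CDKN1A and TRIB3, up to 4 called genes with the largest change, and untested genes, and for likeness the 5 nearest rows with a mean of at least 50. Genes named beyond that rule were chosen after their values were seen. Members and lists were chosen with earlier results of these data known. The labels do not say that replicates were separate cultures grown on separate days, so the p-values rest on a spread among libraries that may be only technical. Some listed items are not reported here, so a named gene need not be the one with the largest change. Same-numbered libraries were not treated as pairs in the main fit, and their deviations from group means correlated weakly.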

Additional observations from a re-analysis of the deposited data

Results flagged for a closer look

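Several values stood out by fixed checks, of which the check on a sample far from the rest of its group flags about 1 in 20 groups by chance. NUPR1 in the third Control library, at 43.0 normalized counts, lay far below the rest of Control, which were at 107 to 118. NUPR1 in the fourth B87 + DMKG library, at 24.2, lay below the other three of its group, at 28.5 to 29.3. The log2 ratio of GDF15 to NUPR1 in the fourth B87 library, at 4.01, lay below the other three, at 5.06 to 5.22.

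Effects that differed between settings by the test of the difference itself were 5. Such calls were common, since these contrasts called 48.8% (single agents), 56.9% (Nutlin-3) and 48.6% (Rita) of all rows. For GDF15, B87 + DMKG departed from the sum of its single agents by -1.14 on the log2 scale, the Nutlin-3 effect was larger with B87 + DMKG than without by 1.16, and the Rita effect was larger by 1.18. For NUPR1, the Nutlin-3 effect with B87 + DMKG minus that without was -1.42, and for Rita it was 1.05. The NUPR1 contrast for Nutlin-3 lost its call with quantile normalization (-0.75, limma, adjusted p = 0.0682).

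Reads on the MIR3189 row, outside the main measurement, were above those of every Control library in B87 + DMKG + Nutlin-3, whose lowest library had 63.6 normalized counts against a Control maximum of 1.09. The row was singled out after its values were seen and passed the testing minimum through that group alone, so this is a description.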

How the results depend on the processing

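Of 204 values of GDF15 under settings other than leaving out 1 library, 198 kept their direction and side of the threshold, and 196 of 204 did for NUPR1. GDF15 lost its call in DMKG against Control without DMKG libraries 3 and 4 (0.55), in B87 + DMKG against B87 with quantile normalization (-0.35) or a fit of those groups alone (-0.48), and in B87 + DMKG + Rita against Rita with no filter (0.56), quantile normalization (0.43) or equal totals (0.48). NUPR1 gained a call in B87 + DMKG against DMKG with quantile normalization (-0.64), and in B87 + DMKG + Rita against Rita with equal totals (-0.65), those groups alone (-0.57), edgeR (-0.59) or DESeq2 (-0.58). With quantile normalization its departure from the sum of single agents turned (-0.26) and its Nutlin-3 difference of differences lost its call (-0.75). Without DMKG libraries 1 and 2, NUPR1 in B87 + DMKG against DMKG turned (0.13). The causes were not tested.

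With a pseudocount of 5, all 9 ratio differences that had been called lost their call. B87 + DMKG against Control then gave exact p above the smallest possible, and the adjustment moved with it. Against Control the differences were 2.04 in DMKG, 0.89 in B87 + DMKG, 1.29 in Rita, 3.34 in B87 + DMKG + Nutlin-3 and 2.41 in B87 + DMKG + Rita. Against B87 + DMKG they were 2.45 and 1.52 for the triple treatments with Nutlin-3 and Rita. The rest were 1.12 for B87 + DMKG + Rita against Rita and 0.93 between the triple treatments.

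Leaving out each library in turn, GDF15 ranged from -0.33 to 0.027 in B87 against Control, -0.64 to -0.28 in B87 + DMKG against B87, 0.44 to 0.74 in B87 + DMKG + Nutlin-3 against Nutlin-3, 0.49 to 0.61 in B87 + DMKG + Rita against Rita, 0.46 to 0.76 in Nutlin-3 against Rita, and -0.11 to 0.20 in Nutlin-3 against B87 + DMKG + Rita. NUPR1 in B87 + DMKG against DMKG ranged from -0.29 to 0.050. Of 164 such values each, 155 of GDF15, 163 of NUPR1 and all 117 of the ratio kept direction and side of the threshold.

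Same-numbered libraries shared little of their deviations from group means. Over 105 pairs the correlation was -0.21 to 0.19 (median -0.003), and 6 pairs passed 0.1. Of the 31 libraries, 5 correlated best with their own number. These values cannot show whether libraries of a number were handled together. With the number as a block, NUPR1 in B87 + DMKG + Nutlin-3 against Nutlin-3 was -3.05 (adjusted p = 9.23e-11) and no call of GDF15 or NUPR1 changed. Rows called in B87 against Control were 7 by limma and 29 by DESeq2. List counts moved past 1.5 times in 105 of 624 values with equal totals or without a pair of DMKG libraries. NUPR1 rested on 22 to 32 reads a library in B87 + DMKG, which limits its precision there. The causes of these shifts were not tested.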
